A study of Mus musculus with 4 samples.

Results

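Accessible chromatin was examined at the 44 protein-coding collagen genes of the mouse, of 21938 protein-coding genes in the annotation. The genes were taken by symbol alone (Col, a number, a, a number), a rule that uses no measured value but was set with earlier results of these data known. A region was assigned to a gene when its summit lay in the gene body or in the 50 kb upstream of the transcription start site (TSS), and a region shared by head-to-head genes was assigned to both. The 44 loci covered 7.22 Mb. Of the 44 genes, 11 encode fibrillar chains (Col1a1, Col1a2, Col2a1, Col3a1, Col5a1, Col5a2, Col5a3, Col11a1, Col11a2, Col24a1 and Col27a1). A further 8 encode collagens of the basement membrane (Col4a1 to Col4a6, Col15a1 and Col18a1). The remaining 25 encode other collagens, among them network-forming, fibril-associated and transmembrane chains.

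Collagens are secreted proteins in which chains with repeated glycine residues wind around each other into a triple helix. Fibrillar collagens assemble into the fibres of connective tissue, whereas type IV collagen forms the sheet-like network on which epithelial cells rest, and the collagens XV and XVIII are attached to that sheet. Chains are hydroxylated and glycosylated in the endoplasmic reticulum, trimmed outside the cell and crosslinked by lysyl oxidases. Epithelial cells normally make basement membrane collagens, and cells that undergo epithelial-mesenchymal transition (EMT) are known to turn towards interstitial matrix, in part under TGF-β.

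The study used EpRas cells, a line derived from the EpH4 mouse mammary epithelial line by transformation with active H-Ras. All groups carried that transformation and were transfected with siRNA, and all were collected at day 4. The groups were control siRNA (siControl) without TGF-β, siControl with 1 ng/ml TGF-β, and knockdown of the ETS factors Etv4 and Etv5 in the presence of TGF-β, made in separate groups with each of 2 siRNA sets (siEtv4/5 set 1 and set 2). Formaldehyde-assisted isolation of regulatory elements (FAIRE) recovers DNA that is poorly crosslinked to nucleosomes, and 1 list of FAIRE-positive regions was deposited for each group. No group combined the knockdown with the absence of TGF-β, and all 3 comparisons share the siControl TGF-β list. With 1 list per group there was no replicate error, so no test between groups was made, and all intervals below cover counting error only. Some regions were picked for a high or low ratio, and their intervals do not allow for that choice. A high siControl TGF-β count raises the TGF-β ratio and lowers both knockdown ratios, since they share it. In a population of cells, accessibility in more cells and greater accessibility per cell cannot be told apart.

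The sequences of 8 regions on which the results turn are shown first, each as 300 bases around a summit on the + strand of mm10 (GRCm38, RefSeq sequence). Capitals mark the AP1 motif TGACTCA or its reverse complement. The first 3 lie inside collagen genes and were at least 1.5-fold stronger with TGF-β than without it, at Col7a1 (the collagen of anchoring fibrils), Col6a3 (a chain of beaded microfilaments) and Col27a1 (a fibrillar chain of cartilage). The nearest coding TSS was that of Ucn2 for the Col7a1 intron and that of Orm1 for the Col27a1 intron. Which gene a region acts on was not tested.
Col7a1 intron, chr9:108978016-108978315: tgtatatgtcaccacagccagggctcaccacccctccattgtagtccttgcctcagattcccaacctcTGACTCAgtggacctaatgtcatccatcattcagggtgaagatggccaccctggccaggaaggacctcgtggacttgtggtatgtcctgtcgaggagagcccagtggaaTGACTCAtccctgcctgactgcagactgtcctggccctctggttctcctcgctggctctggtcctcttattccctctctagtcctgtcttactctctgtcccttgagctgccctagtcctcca
Col6a3 intron, chr1:90834841-90835140: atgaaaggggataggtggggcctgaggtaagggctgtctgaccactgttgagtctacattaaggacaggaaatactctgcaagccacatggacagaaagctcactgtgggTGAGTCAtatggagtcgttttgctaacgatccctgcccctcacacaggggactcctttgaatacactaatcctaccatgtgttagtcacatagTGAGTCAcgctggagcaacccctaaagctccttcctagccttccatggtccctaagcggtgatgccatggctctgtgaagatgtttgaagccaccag
Col27a1 intron, chr4:63323506-63323805: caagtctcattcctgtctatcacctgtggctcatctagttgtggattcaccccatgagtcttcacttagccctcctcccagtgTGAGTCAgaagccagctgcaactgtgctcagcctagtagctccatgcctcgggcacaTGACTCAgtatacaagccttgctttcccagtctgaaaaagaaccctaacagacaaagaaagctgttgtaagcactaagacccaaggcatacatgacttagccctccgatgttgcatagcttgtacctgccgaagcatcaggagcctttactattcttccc
The next pair are the far upstream region of Col1a1, which encodes the main chain of type I collagen, and the promoter of Col7a1, the only collagen promoter called in every library.
Col1a1 upstream, chr11:94913761-94914060: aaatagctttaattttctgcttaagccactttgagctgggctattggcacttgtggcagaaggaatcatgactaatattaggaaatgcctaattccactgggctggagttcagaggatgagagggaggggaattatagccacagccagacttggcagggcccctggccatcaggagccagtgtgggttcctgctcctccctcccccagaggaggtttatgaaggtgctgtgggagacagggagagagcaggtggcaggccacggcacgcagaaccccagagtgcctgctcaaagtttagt
Col7a1 promoter, chr9:108953087-108953386: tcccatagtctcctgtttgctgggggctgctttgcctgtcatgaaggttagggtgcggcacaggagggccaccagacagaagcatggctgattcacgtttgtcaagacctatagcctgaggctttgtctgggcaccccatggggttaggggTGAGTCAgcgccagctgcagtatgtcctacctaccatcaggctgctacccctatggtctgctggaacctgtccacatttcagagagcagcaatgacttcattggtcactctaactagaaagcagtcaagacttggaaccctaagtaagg
The last 3 belong to basement membrane genes: an intron of Col4a2 that lies within 50 kb of both Col4a1 and Col4a2, an intron of Col15a1 that was called in only some lists, and an intron of Col18a1 called in all of them.
Col4a2 intron, chr8:11346297-11346596: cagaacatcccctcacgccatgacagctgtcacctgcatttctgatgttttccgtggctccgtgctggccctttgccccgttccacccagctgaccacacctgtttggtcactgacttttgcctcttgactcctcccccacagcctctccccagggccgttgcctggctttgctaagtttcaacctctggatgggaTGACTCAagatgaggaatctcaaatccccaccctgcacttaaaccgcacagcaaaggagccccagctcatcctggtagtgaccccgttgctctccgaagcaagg
Col15a1 intron, chr4:47309890-47310189: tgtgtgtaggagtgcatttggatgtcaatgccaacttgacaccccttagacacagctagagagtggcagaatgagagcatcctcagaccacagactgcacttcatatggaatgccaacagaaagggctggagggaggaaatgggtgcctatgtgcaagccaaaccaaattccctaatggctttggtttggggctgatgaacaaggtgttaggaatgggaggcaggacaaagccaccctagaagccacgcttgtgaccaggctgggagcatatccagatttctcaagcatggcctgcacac
Col18a1 intron, chr10:77142397-77142696: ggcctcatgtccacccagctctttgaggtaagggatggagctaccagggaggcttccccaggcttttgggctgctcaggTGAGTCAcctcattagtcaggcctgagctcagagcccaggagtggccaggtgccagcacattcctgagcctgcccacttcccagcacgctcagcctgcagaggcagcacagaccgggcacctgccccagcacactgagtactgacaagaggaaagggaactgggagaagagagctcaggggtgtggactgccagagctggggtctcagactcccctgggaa
The motif stood 2 times in the Col7a1, Col6a3 and Col27a1 introns, 1 time in the Col7a1 promoter and the Col4a2 and Col18a1 introns, and nowhere in the Col1a1 and Col15a1 windows.

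The lists held 22247 regions in untreated cells, 28754 in siControl cells given TGF-β, 22516 for set 1 and 14925 for set 2, and values are given in this order below. The numbers of DNA fragments at the summit were solved from the deposited fold enrichment and p-value, and the estimated depths were 15.3, 16.3, 17.3 and 20.7 M reads in the same order. The set 2 library thus stood apart, with the highest estimated depth and the shortest list. At the lowest background, the smallest number of fragments called was 10, 11, 11 and 12. A region missing from a list was not called there, which does not show that it was closed. Of 8 mammary epithelial marker genes, 7, 4, 4 and 3 had a region within 2 kb of the TSS, with Krt8 and Krt14 marked in all lists and Krt5 in none. None of 6 fibroblast and none of 4 leukocyte markers had one in any list, and of 3 endothelial markers only Pecam1 did, with TGF-β. Of all coding genes, 34.4%, 36.1%, 32.4% and 25.8% had one, and 40.4% in any list. Anywhere in the locus, regions were called at 7, 7, 7 and 7 of the mammary and 1, 3, 3 and 1 of the endothelial markers. For fibroblast markers it was 5, 4, 4 and 3, and for leukocyte markers 2, 3, 2 and 1. A region in the locus was called at 65.2%, 68.2%, 64.2% and 55.1% of all coding genes. So few markers do not settle cell identity.

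Regions at collagen loci numbered 84, 117, 92 and 60. They made up 0.378%, 0.407%, 0.409% and 0.402% of the lists, so the collagen share of all accessible regions varied little between libraries. Per Mb of locus the collagen genes held 11.6, 16.2, 12.7 and 8.31 regions, against 12.4, 15.7, 12.4 and 8.41 for all coding genes. Median fold enrichment over background at collagen regions was 7.93, 8.48, 7.91 and 7.24, and over the whole lists 8.19, 8.44, 7.91 and 7.15. In every library, the density at collagen loci as a whole lay close to that of all coding loci and the strength close to that of the whole list. When each list was cut to its 14925 most significant regions, the collagen counts were 51, 61, 62 and 60.

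At least 1 region was called at 35, 39, 34 and 29 of the 44 genes, against 65.2%, 68.2%, 64.2% and 55.1% of all coding genes, whose loci covered less sequence per gene. In all, 26 collagen genes had a region in every list. Col6a2 (a type VI chain), Col10a1 (the collagen of hypertrophic cartilage) and Col11a1 (a minor fibrillar chain) had none in any list. The shares of all coding genes with a region in every list or in none were not computed, so these counts have no comparison. Col18a1, whose C-terminal part is known as endostatin, had the most, with 8, 10, 8 and 8. Merged over the lists, the collagen loci held 149 regions, of which 38 were at fibrillar, 36 at basement membrane and 75 at other genes. Of these, 87 lay inside a collagen gene away from its promoter, 30 upstream between coding genes, 17 at the promoter of another coding gene, 8 at a collagen promoter and 7 upstream inside another coding gene.

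**Figure D1:**
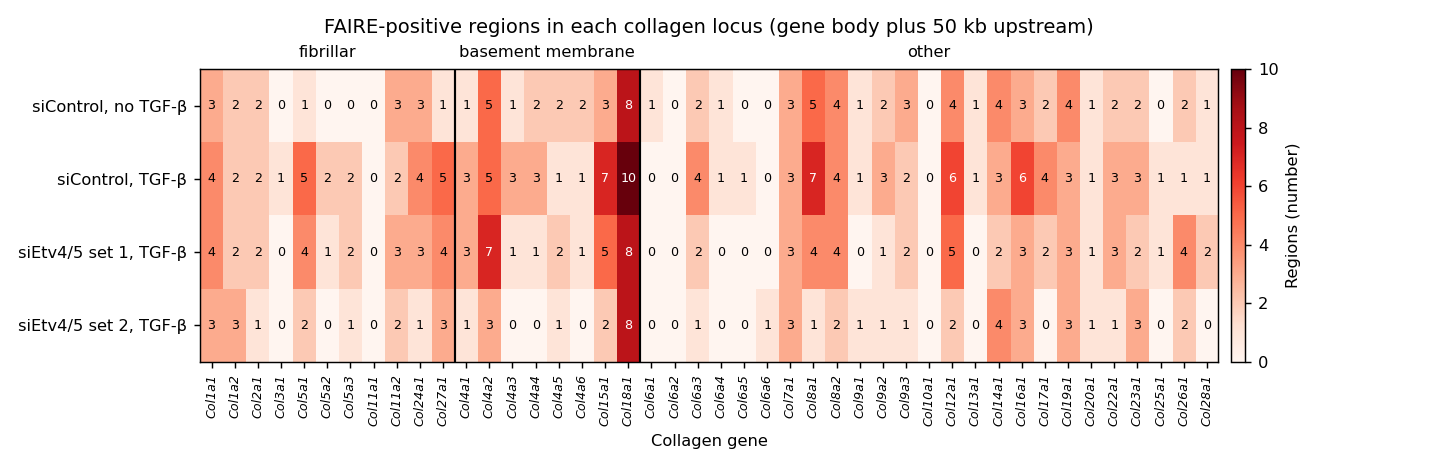
Number of FAIRE-positive regions at each of the 44 collagen loci (columns, grouped by class) in each library (rows), with darker red for more regions. Col5a1 and Col27a1 each had 1 region without TGF-β and 5 with it, and Col18a1 had at least 8 in each library.

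Few collagen promoters were accessible. A region within 2 kb of the TSS was called at 5, 3, 3 and 3 of the 44 genes (11.4%, 6.82%, 6.82% and 6.82%), against 34.4%, 36.1%, 32.4% and 25.8% of all coding genes. Over the lists together, 7 of the 44 genes had such a region in at least 1 list, against 40.4% of coding genes, and 1 had it in all 4, against 22.4%. That gene was Col7a1, with 12, 13, 17 and 22 fragments at a summit 350 bp upstream of its TSS. Relative to reads, the set 2 value was 1.33 times that of siControl with TGF-β (95% interval 0.642 to 2.88), an interval that includes no difference.

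The promoter of Col12a1, a fibril-associated collagen, carried 17, 22 and 27 fragments in the untreated, TGF-β and set 1 libraries and was not called with set 2. The summit lay 142 bp downstream of the TSS in an exon of the untranslated region, and a further region at 1725 bp was called only with TGF-β, with 23 fragments. At Col18a1, a region 39 bp upstream of the TSS had 19 fragments without TGF-β and 20 with set 1 and was missing from the other lists. Col14a1 (1270 bp upstream) had 18 fragments without TGF-β and 23 with set 2, again in 2 of the 4 lists. Each of the other 3 was called once: Col8a1 with TGF-β (25 fragments), Col13a1 without it (15 fragments) and Col1a1 with set 2 (20 fragments, 1012 bp inside the gene in an intron). No promoter region was called for the other 37 genes, among them Col3a1, Col1a2 and all 6 type IV genes. Here the TSS was the 5' end of the gene record. When the start of any annotated transcript was allowed, 5, 4, 4 and 3 collagen genes had a promoter region. Col4a1 and Col4a2, which start 21 bp apart on opposite strands, had 5, 6, 7 and 3 regions along the pair, all away from the start sites they share.

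Accessible promoters were more common among the genes that process collagen. Of 28 genes for collagen hydroxylation, folding, secretion, trimming and crosslinking, 10, 12, 11 and 9 had a promoter region (35.7%, 42.9%, 39.3% and 32.1%, near the shares of all coding genes). Of the 28, 9 had one in all lists, against 22.4% of all coding genes. These 9 included P4ha1 and P4hb (the subunits of prolyl hydroxylase), Plod3 (a lysyl hydroxylase), Ppib (a prolyl isomerase of the collagen-modifying complex), Mia3 (the receptor that loads collagen into transport vesicles) and Pcolce (an enhancer of propeptide trimming). The lysyl oxidase genes, whose products crosslink collagen, were not alike. Loxl4 had a promoter region in every list and Loxl3 in the TGF-β list alone, and Lox, Loxl1 and Loxl2 had none. Elsewhere in its locus, Lox had no region without TGF-β, 4 with it, 1 with set 1 and none with set 2. Over the 28 loci the lists held 75, 87, 63 and 49 regions.

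**Figure D2:**
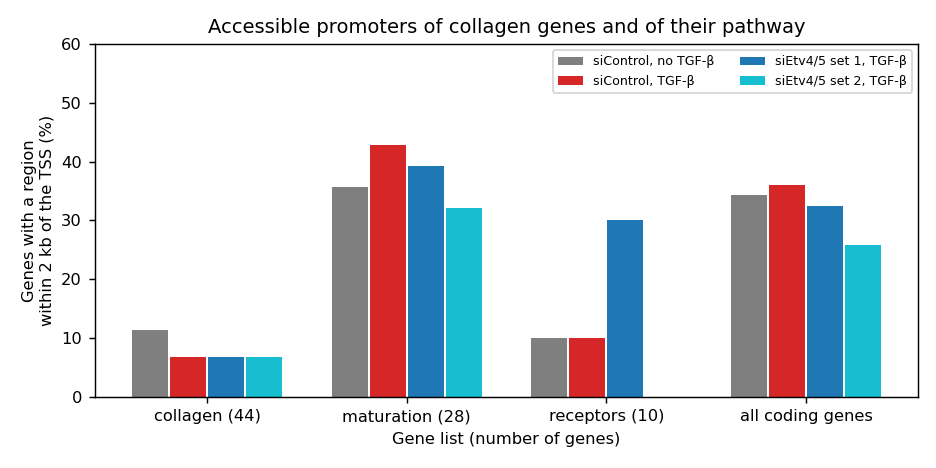
Percentage of genes with a FAIRE-positive region within 2 kb of the TSS (bars, 1 per library) for the collagen genes, the genes of collagen maturation, collagen receptors and all coding genes. Collagen genes reached at most 11.4%, below all coding genes in each library, while 9 to 12 of the 28 maturation genes had such a region.

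On the full lists, fibrillar loci showed the largest difference in number between the libraries with and without TGF-β. They held 15 regions without TGF-β, 29 with it, 25 with set 1 and 16 with set 2. Per Mb this was 9.40 (95% Poisson interval 5.26 to 15.5), 18.2 (12.2 to 26.1), 15.7 (10.1 to 23.1) and 10.03 (5.73 to 16.3). The intervals of the untreated and TGF-β libraries overlap. With lists of equal length the counts were 7, 12, 16 and 16, so the order of the untreated and TGF-β libraries was kept whereas set 2 no longer lay below siControl with TGF-β. In number of regions, the difference of the other collagens, from 30 to 37, was then larger than that of the fibrillar loci. Per Mb the fibrillar difference, from 4.39 to 7.52, remained larger than that of the other collagens, from 7.04 to 8.69.

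**Figure D3:**
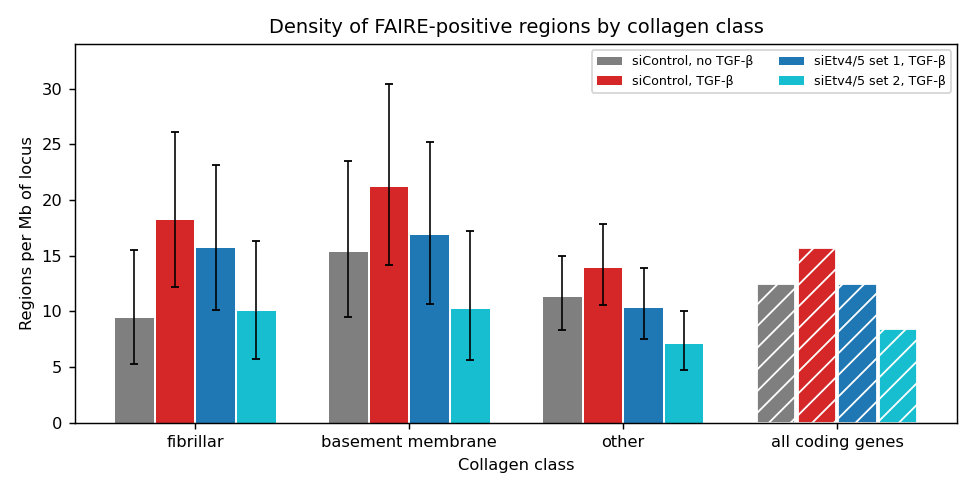
Regions per Mb of locus for the collagen classes and, hatched, for all coding genes, in each library. Error bars are exact Poisson 95% intervals of the counts, and fibrillar loci held 9.40 regions per Mb without TGF-β and 18.2 with it.

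With TGF-β, 7 of the 11 fibrillar genes had more regions than without it, 1 had fewer (Col11a2) and 3 had equal numbers. Over all coding genes, with a longer TGF-β list and less sequence per locus, 30.7% had more regions and 11.9% fewer. Col5a1, which encodes a chain that sets fibril diameter, had 1, 5, 4 and 2 regions, and Col27a1 had 1, 5, 4 and 3. Col3a1, of the fine fibrils of soft tissues, had a single region, in the TGF-β list. Its partner in fibrils Col5a2 had 2 with TGF-β and 1 with set 1, and Col5a3 had 2 with TGF-β, 2 in the set 1 list and 1 in the set 2 list. None of these 3 genes had any region without TGF-β. Over all fibrillar loci, the regions called with TGF-β and not without it had a median of 18 fragments, against 25.5 for those called in both. At Col5a1 no region was called in all lists, and its TGF-β regions had 14 to 23 fragments.

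Type I collagen is the main protein of fibrous tissue, and whether its genes differed from each other was not tested. At Col1a1 the region 22.3 kb upstream had 22 fragments without TGF-β, 39 with it, 28 with set 1 and 23 with set 2. Relative to reads the TGF-β value was 1.67 times the untreated one (0.963 to 2.95). Set 2 stood at 0.464 times siControl with TGF-β (0.265 to 0.797). Knockdown ratios on this scale were below 1 at most regions of the whole lists. Over all shared regions their median log2 value was -0.67 for set 2 and -0.24 for set 1. The Col1a1 value for set 2 was -1.11 in log2, and its interval includes that set 2 median. Another region at 19.5 kb upstream had 28, 37, 26 and 28 fragments. Both were highest with siControl and TGF-β. Closer to the gene, the region 8.1 kb upstream had 20, 26 and 26 fragments and was missing with set 2, and that at 7.2 kb was called with 17 fragments in the TGF-β and set 1 lists only. At Col1a2 the region 16.3 kb upstream had 27, 25, 24 and 25 fragments and fold enrichments of 8.68, 8.11, 8.02 and 6.73, highest without TGF-β. The intronic region 2.7 kb inside Col1a2 had 25, 25 and 21 fragments with TGF-β, set 1 and set 2 and was not called without TGF-β.

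The strongest fibrillar region inside a collagen gene and called in every list was in an intron of Col27a1, 109.7 kb from the TSS, with 16, 30, 29 and 17 fragments. The TGF-β value was 1.76 times the untreated one (0.930 to 3.46). Set 1 was close to siControl (0.910, 0.527 to 1.57), while set 2 was at 0.446 (0.231 to 0.836). The latter interval includes the median set 2 ratio of all shared regions. At Col24a1 an intronic region had 24, 23, 22 and 26 fragments. All regions assigned to Col2a1 and Col11a2 lay upstream of these genes, those of Col2a1 more than 44 kb away inside another gene, and at Col11a2 the pair called in every list lay at the promoters of H2-K1 and Rxrb.

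On the full lists, basement membrane loci had the highest density. They held 21, 29, 23 and 14 regions, or 15.35 (9.50 to 23.5), 21.2 (14.2 to 30.5), 16.8 (10.7 to 25.2) and 10.2 (5.60 to 17.2) per Mb. With type IV genes alone the density was 9.54, 11.4, 9.54 and 3.82 per Mb, below the 12.9, 16.6, 12.4 and 8.74 of the other class, which then included Col15a1 and Col18a1. With lists of equal length the class held 14, 12, 11 and 14 regions, the higher count with TGF-β was not seen, and with set 1 its density (8.04 per Mb) was the lowest of the classes.

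Col4a1 and Col4a2 encode the chains of the common type IV network. Their shared intronic region, 33.6 kb from the TSS, had 33, 32, 26 and 24 fragments, and those further into Col4a2 had 28, 36, 37 and 29 at 59.5 kb and 23, 29, 28 and 21 at 69.7 kb. All 3 were called in every list. The pair Col4a3 and Col4a4, whose chains belong to specialised membranes such as those of kidney and lung, had 2 regions without TGF-β, 4 with it, 1 with set 1 and none with set 2. The X-linked pair Col4a5 and Col4a6 had 3, 2, 2 and 1.

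At Col15a1 the most strongly marked region lay in an intron 102.8 kb from the TSS, with 42, 51, 31 and 36 fragments. Set 1 stood at 0.572 times siControl with TGF-β (0.354 to 0.912) and set 2 at 0.556 (0.352 to 0.869). A neighbour at 101.9 kb had 39 fragments with TGF-β and 21 with set 1 (ratio 0.507, 0.283 to 0.883) and was called neither without TGF-β nor with set 2. Both lie closer to the TSS of Tgfbr1, which encodes a TGF-β receptor, than to that of Col15a1. Each knockdown interval given for these Col15a1 regions includes the median ratio of all shared regions for the same siRNA set. At Col18a1 an intronic region at 24.0 kb had 24, 31, 26 and 30 fragments, a region 40.4 kb upstream had 36, 39, 31 and 27, and one 44.8 kb upstream had 25, 34, 24 and 30. These 3 were called in each list, as were 3 others among the 14 merged regions of the locus.

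**Figure D4:**
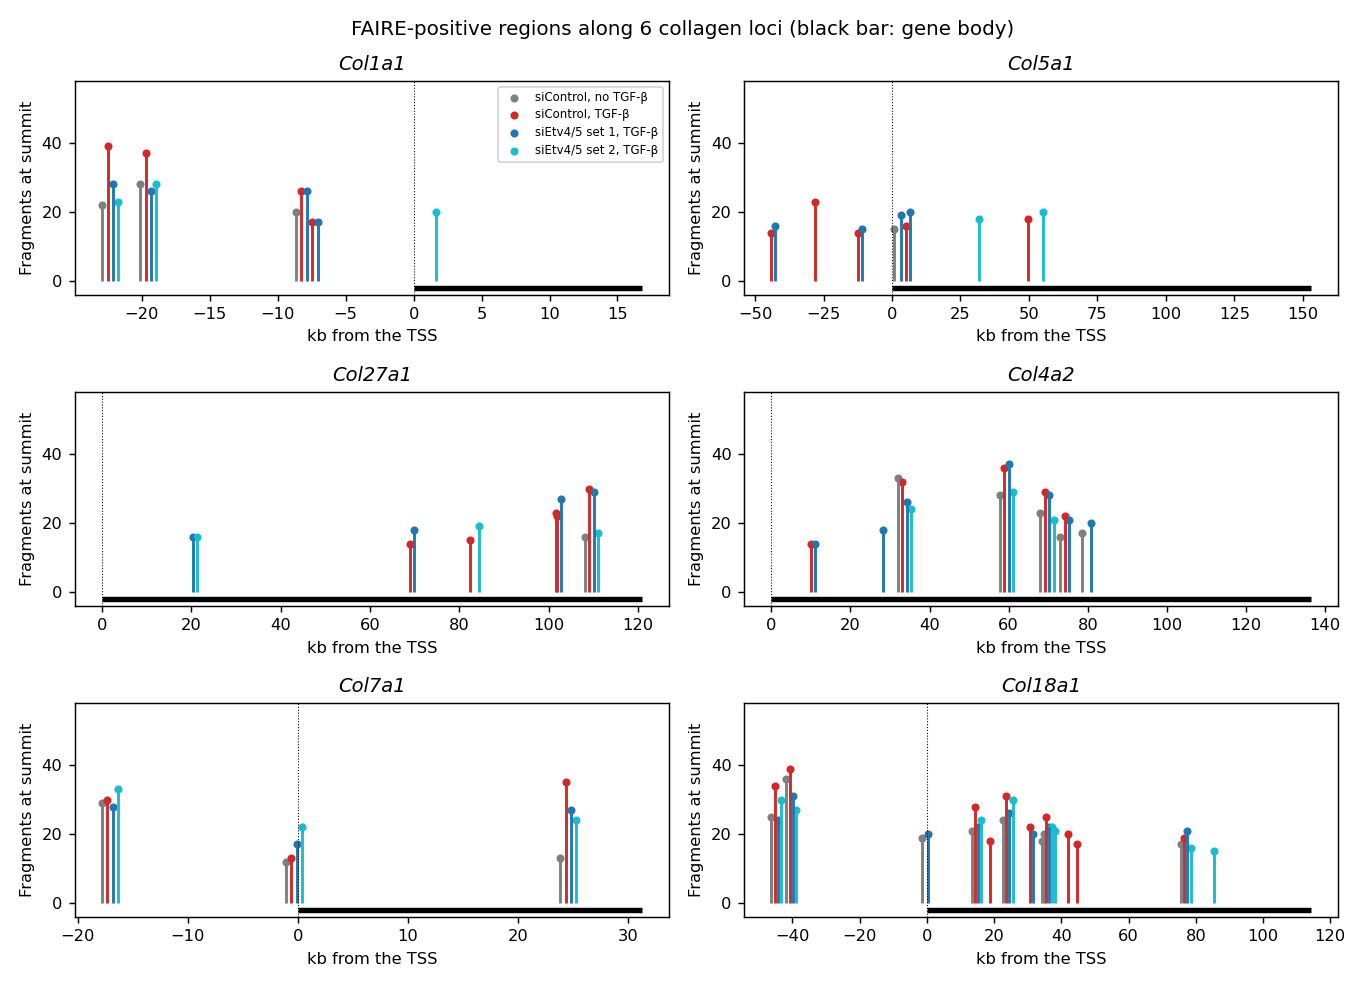
FAIRE fragments at the summit (vertical axis) of each region called along 6 collagen loci, by distance from the TSS in kb (horizontal axis, negative values upstream), with 1 coloured stem per library set slightly apart at each region and the gene body as a black bar. At Col1a1 the region 22.3 kb upstream is tallest with TGF-β (39 fragments), and at Col5a1 no region is marked in all libraries.

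The 25 other collagens held 48, 59, 44 and 30 regions, or 11.3, 13.9, 10.3 and 7.04 per Mb, and with TGF-β 10 genes had more regions than without it, 5 had fewer and 10 had equal numbers (all coding genes, 30.7% more and 11.9% fewer). Among them, the Col7a1 intron shown above, 24.6 kb from the TSS, had 13 fragments without TGF-β, 35 with it, 27 with set 1 and 24 with set 2. Its log2 ratio of fold enrichment with TGF-β over untreated, 0.78, was the highest among collagen regions called in both lists, and relative to reads the ratio was 2.53 (1.31 to 5.21). Set 2 stood at 0.540 times siControl with TGF-β (0.307 to 0.934). The Col6a3 intron, 9.0 kb from the TSS, had 20, 40, 33 and 24 fragments. Its TGF-β value was 1.88 times the untreated one (1.07 to 3.39), and set 2 was at 0.473 of siControl (0.272 to 0.803). The Col7a1 and Col6a3 regions were picked for high TGF-β ratios, a choice these intervals do not allow for. Both set 2 intervals include the median set 2 ratio of all shared regions. At both genes the TGF-β library was highest in fragments and in fold enrichment. At Col7a1 the untreated library was lowest, whereas at Col6a3 fold enrichment was nearly the same without TGF-β (6.83) and with set 2 (6.78).

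Col8a1, a short-chain collagen of vessel walls and the cornea, had 5, 7, 4 and 1 regions. Its intronic region 4.0 kb from the TSS had 22, 38 and 31 fragments in the first 3 libraries, and that at 55.8 kb had 21, 34 and 23. Neither was called with set 2, whereas the region at 82.8 kb had 33, 38, 39 and 30. Col22a1, a collagen of tissue junctions, had an intronic region 180.8 kb from the TSS with 37 fragments with TGF-β and 21 with set 1, not called in the other lists. The coding TSS nearest to this region was that of Fam135b. Col16a1, a fibril-associated collagen, had a region 2.8 kb inside the gene with 34, 30, 21 and 24 fragments, highest without TGF-β. Col17a1, the transmembrane collagen of hemidesmosomes, had 2 regions without TGF-β, 4 with it, 2 with set 1 and none with set 2. Of the 5 merged regions at Col17a1, 3 lay at the promoter of its neighbour Sfr1, and none was inside the collagen gene.

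Of the 117 collagen regions called with TGF-β, 50 (42.7%, Wilson 95% interval 34.1 to 51.8) were not called without it, against 37.0% of all regions in the list. By class the share was 17 of 29 at fibrillar genes (58.6%, 40.7 to 74.5), 12 of 29 at basement membrane genes (41.4%, 25.5 to 59.3) and 21 of 59 at other genes (35.6%, 24.6 to 48.3). The fibrillar interval lay above the value for all regions, and the other intervals included it. The sets differ in position: 35 of 38 merged fibrillar regions lay over 2 kb from a coding TSS, against 26804 of 35796 overall. No share matched for this was computed. The intervals also treat regions of the same locus as independent. With lists of equal length the fibrillar share was 58.3% of 12 regions (32.0 to 80.7), the basement membrane share 25.0% and the share at other genes 45.9%, against 34.4% of all regions, and the fibrillar interval then included the value for all regions. In the opposite direction, 18 of the 84 regions called without TGF-β were missing with it (21.4%, 14.01 to 31.3), against 18.4% of all. Of those missing, the region with most fragments lay at the Sfr1 promoter upstream of Col17a1 (38 fragments, untreated list only). The next lay at the Trappc3 promoter upstream of Col8a2, with 35 fragments without TGF-β and 27 with set 1.

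Among the 66 merged collagen regions called in both lists, fold enrichment with TGF-β was higher at 48 and lower at 18. The median log2 ratio was 0.17, and over all regions called in both it was 0.12. It was 0.22 at fibrillar, 0.13 at basement membrane and 0.25 at other genes. At least 1.5-fold higher values were found at 4 collagen regions, against 5.92% of all regions, and these were the Col7a1 and Col6a3 introns, the Col1a1 region 22.3 kb upstream and the Col27a1 intron. None was at least 1.5-fold lower, against 0.924% of all. The number of strongly different regions was thus near what the whole list showed. The lowest log2 ratios were at the Ift22 promoter upstream of Col26a1 (-0.37), in a Col16a1 intron (-0.35) and in a Col4a6 intron (-0.34).

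With set 1, 39 of the 117 regions called with siControl and TGF-β were missing (33.3%, 25.4 to 42.3), against 33.6% of all regions. Fewer regions were called at 21 of the 44 genes, more at 5 and equal numbers at 18, while over all coding genes 32.7% had fewer and 9.53% more. The share missing was 27.6% (14.7 to 45.7) at fibrillar, 34.5% (19.9 to 52.7) at basement membrane and 35.6% (24.6 to 48.3) at other genes. Among the 77 regions called in both, the median log2 ratio of fold enrichment was -0.16, as it was over all regions. By class, at fibrillar genes 10 of 21 ratios lay above 0 and the median was -0.01, whereas at basement membrane genes 18 of 19 lay below 0 with a median of -0.25. Over all regions 71.5% lay below 0. At least 1.5-fold lower values were found at 3 collagen regions, against 6.60% of all. They were at the H2-K1 promoter upstream of Col11a2, in a coding exon of Col12a1 70.04 kb from its TSS (20, 25 and 16 fragments in the first 3 libraries) and in the Col15a1 intron at 101.9 kb. None was at least 1.5-fold higher, against 0.557% of all.

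With set 2, 68 of the 117 were missing (58.1%, 49.1 to 66.7), against 53.6% of all regions. By class this was 18 of 29 at fibrillar (62.1%), 17 of 29 at basement membrane (58.6%) and 33 of 59 at other genes (55.9%), each with an interval that included 53.6%. With lists of equal length the share for all collagen regions was 36.1%, against 33.4% of all regions, and the class shares were 33.3%, 16.7% and 43.2%, in another order. Fewer regions than with siControl and TGF-β were called at 29 genes, more at 4 (Col1a2, Col6a6, Col14a1 and Col26a1) and equal numbers at 11, while over all coding genes 47.6% had fewer and 3.63% more. Among the 48 regions called in both, 42 ratios lay below 0 and the median was -0.40, against -0.38 over all. At basement membrane genes all 12 ratios lay below 0, against 89.4% of all regions. At least 1.5-fold lower values were found at 10 collagen regions, against 24.2% of all, and at least 1.5-fold higher values at none, against 0.0901%. The lowest was in a Col23a1 intron whose nearest coding TSS was that of Phykpl, with 25, 34, 28 and 16 fragments. Relative to reads, set 2 stood there at 0.371 times siControl with TGF-β (0.191 to 0.690). On the scale of fragments divided by estimated depth the median log2 ratio was -0.66, against -0.67 over all regions. The Col23a1 interval includes this median of all regions.

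**Figure D5:**
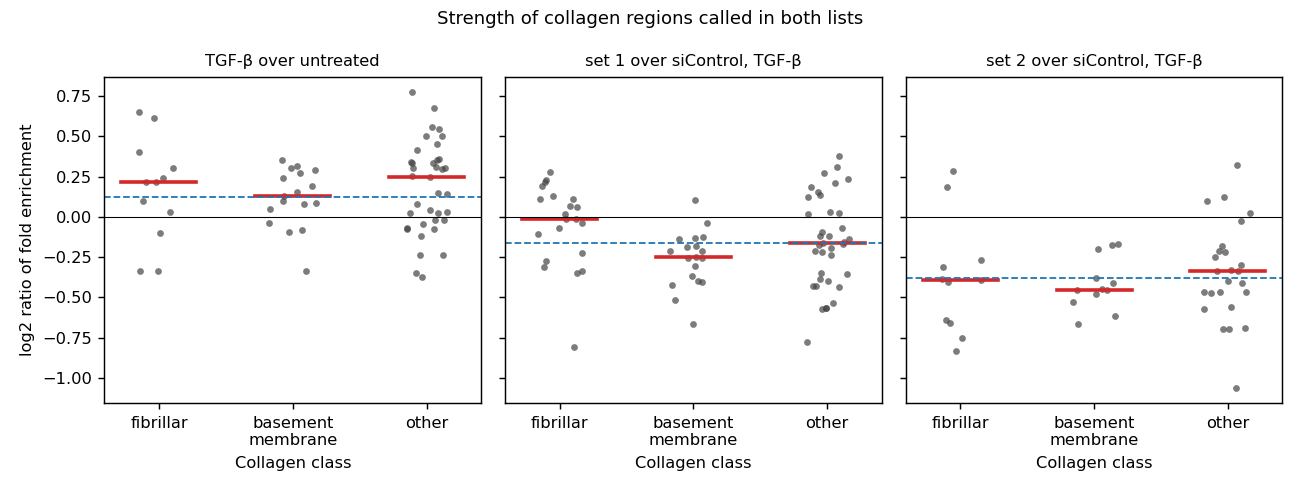
Log2 ratio of fold enrichment at collagen regions called in both lists of each comparison, by class (points, 1 per region; red bars, class medians; dashed blue line, median of all regions). The medians for set 1 were -0.01 at fibrillar and -0.25 at basement membrane genes.

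The calls made with the siRNA sets are given side by side, since both sets are compared with the same siControl TGF-β list. Of the 149 merged regions, 42 (28.2%) were called in all lists, against 29.6% of all merged regions. A further 29 were called with siControl and TGF-β alone (19.5%, against 16.1% of all). They had 15 to 28 fragments, and 6 were at fibrillar genes (2 at Col5a1 and 1 each at Col3a1, Col5a2, Col24a1 and Col27a1), 8 at basement membrane genes (among them 3 at Col18a1 and 2 at Col15a1) and 15 at other genes. Another 17 were called with TGF-β and with set 1 only (11.4%, against 8.19% of all), and 8 of these were at fibrillar genes. These 8 lay at Col5a1 (3 regions), Col27a1 (2 regions), Col1a1, Col5a2 and Col5a3. In the reverse direction, 12 of the 60 set 2 regions were not called with siControl and TGF-β (20.0%, 11.8 to 31.8), against 10.3% of the set 2 list, and for set 1 it was 15 of 92 (16.3%, 10.1 to 25.2), against 15.2%.

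Sequence was examined in windows of 300 bases around each of the 149 summits. The AP1 motif (TGACTCA, both strands) was found in 69 (46.3%, 38.5 to 54.3), against 34.2% of all 35796 merged regions. Among regions more than 2 kb from any coding TSS the shares were closer, at 50.8% (42.1 to 59.4) of 124 collagen regions and 42.8% of all. By class these were 54.3% at fibrillar, 54.3% at basement membrane and 46.3% at other genes. In distal collagen regions the motif stood in 22 of 45 called with TGF-β and not without it (48.9%, 35.0 to 63.0) and in 31 of 53 called in both (58.5%, 45.1 to 70.7). The ETS motif (CCGGAAGT or CAGGAAGT, both strands) was found in 7 collagen regions (4.70%, 2.29 to 9.38), against 7.51% of all. The 7 were at Col1a1 (the region 19.5 kb upstream), Col13a1, Col16a1, Col8a2 (2 regions) and Col9a2 (2 regions), and none of the 36 basement membrane regions held it (0%, up to 9.64%). The RUNX motif (TGTGGTT, both strands) was found in 8.05% (4.67 to 13.5), against 10.2% of all. The median GC content was 50.0% in the collagen windows and 49.7% in all.

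The strongest collagen regions of all were a pair about 25 kb upstream of Col19a1, a fibril-associated collagen, and these stood apart in sequence. They had 47, 43, 46 and 41 fragments and 56, 56, 56 and 56 fragments. Of their 36-base words, the trimmed read length, 85.9% and 82.7% also occur in the mitochondrial chromosome, and none of the other collagen regions shared any. Reads from mitochondrial DNA and from this nuclear copy cannot be told apart here. Without the pair, the share called with TGF-β and not without it was 43.5% in place of 42.7%.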

How the data were processed

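DNA from FAIRE was sequenced by the authors on an Ion Proton, trimmed to 36 bases and aligned to mm10 (Bowtie), and regions were called against a modelled background with MACS2 (version 2.1.0 per the submitters' processing notes; the study's methods name an earlier version) at a q-value limit of 0.0001. Each of the 4 groups had 1 deposited list. The study describes biological replicates, and whether reads were pooled is not given in the sources used here. The deposited lists give, per region, fold enrichment (a ratio of summit fragments to background, with a pseudocount of 1), the −log10 p-value, the −log10 q-value, a score made from it and the summit.

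From these, the numbers of fragments and the local background were solved exactly from fold enrichment and p-value (100% whole within 0.05), and depth was estimated from the lowest background with a genome size of 1.87 Gb. Genes were taken from GENCODE M21 and sequence from RefSeq GRCm38.p6, which has the build of the files. A region was counted at a gene by its summit, overlap of at least 1 base made regions of different lists shared, and overlapping regions were merged. Strength was compared as the log2 ratio of fold enrichment, and named regions also by fragments divided by estimated depth with exact conditional 95% intervals. Shares have Wilson intervals and densities exact Poisson intervals.

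The collagen genes, the gene lists and the alternatives were chosen with earlier results of these data known. Regions were picked for description by fixed rules, and not all of those picked are described above. The rules took those within 2 kb of a collagen TSS and the 3 strongest called in all lists in each class. They also took the 5 with most fragments called in 1 list of a comparison only, and the 3 highest and 3 lowest ratios of each comparison. Regions named for a collagen gene beyond these were chosen after their values were seen. The calculation was tested on simulated lists. Python 3.11.15, NumPy 2.4.6, pandas 2.3.3, SciPy 1.17.1, pysam 0.24.0, samtools 1.23.1 and matplotlib 3.10.9 were used.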

Additional observations from a re-analysis of the deposited data

How the results depend on the processing

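No paired analysis was possible because each group has 1 list, and for the same reason no replicate could be left out. Of 275 recomputed values for 36 results, 244 moved by less than their counting interval or 1.5 times and 31 moved by more. No median log2 ratio changed sign, and only these medians have a sign. Some settings could change little: a stricter q-value limit left 116 of the 117 collagen regions called with TGF-β. The order of the classes was not scored, and it changed with equal lists and with type IV genes alone. Cutting every list to equal length, which keeps only stronger regions, gave 51 collagen regions without TGF-β and 61 with it, and 1 gene with a promoter region in each of the first 3 libraries. Density per Mb became 4.39 (fibrillar) and 7.04 (other) without TGF-β, 7.52, 8.77 and 8.69 (fibrillar, basement membrane, other) with it, and 10.03 and 8.04 (fibrillar, basement membrane) with set 1. The basement membrane share called with TGF-β and not without it became 25.0%, against 34.4% of all regions. The share of untreated collagen regions missing with TGF-β became 33.3%, against 34.3% of all regions. The shares missing with set 2 became 36.1% in all, 33.3% at fibrillar, 16.7% at basement membrane and 43.2% at other genes. Over all regions the share missing with set 2 was 33.4%. Limiting loci to 10 kb upstream gave 53, 75, 57 and 38 regions and fibrillar densities of 5.19 without TGF-β and 10.4 with set 1. A promoter window of 1 kb gave 3 genes without TGF-β and 1 with set 2. On the scale of fragments divided by estimated depth the median log2 ratio with set 2 became -0.66. With type IV genes alone the basement membrane density became 9.54, 11.4, 9.54 and 3.82. Under the alternatives chosen after seeing the data, the share called with TGF-β and not without it was 43.5% without the regions of mitochondrial sequence. Without those at other genes' promoters it was 45.6%, and the fibrillar share was 63.0%. The share over all regions was not recomputed under these filters, so none of these values has a matched comparison. Few fragments limit every single region: at 12 to 56 fragments most intervals of a ratio at the regions picked by the fixed rules include no difference.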

Other observations

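The 10 genes listed as collagen receptors held 24, 31, 27 and 14 regions in the untreated, TGF-β, set 1 and set 2 lists. Ddr2, a receptor tyrosine kinase for fibrillar collagens, had 2, 4, 7 and 1 regions and a promoter region with set 1 only. Ddr1, its epithelial relative, had 7, 6, 6 and 4. Itga2, the integrin chain that binds type I collagen, had 2, 4, 2 and 1, with a promoter region with TGF-β and with set 1. Itgb1, the beta chain shared by the collagen-binding integrins, had 3 regions in each list and a promoter region without TGF-β and with set 1. Itga11, whose product binds fibrillar collagens, had 1, 3, 1 and 0. Lair1, a leukocyte receptor, had none in any list. A promoter region was called at 1, 1, 3 and 0 of the 10 receptor genes, against 34.4%, 36.1%, 32.4% and 25.8% of all coding genes. No receptor gene had one in all lists, against 22.4% of all coding genes. Sparc, which encodes a collagen-binding matrix protein, had 4, 7, 5 and 4 regions, none at its promoter.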
